A study of Arabidopsis thaliana with 24 samples.

Results

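H3K9ac, an acetylated form of histone H3 found over active genes, was followed at 10 genes of the gibberellin pathway in young Arabidopsis seedlings. The genes encode enzymes of the oxidase families that make and inactivate the hormone, and they were chosen by name: GA20OX1 (AT4G25420), GA20OX2 (AT5G51810), GA3OX1 (AT1G15550), GA3OX2 (AT1G80340), GA2OX1 (AT1G78440), GA2OX2 (AT1G30040), GA2OX4 (AT1G47990), GA2OX6 (AT1G02400), GA2OX7 (AT1G50960) and GA2OX8 (AT4G21200). Of these 10 genes, 8 have an H3K9ac peak, with 9 peaks between them, among the 17672 genes and 19435 peak entries measured in all. Chromatin was immunoprecipitated from whole seedlings that were 2 days old. The mutant pifq, which lacks functional PIF1, PIF3, PIF4 and PIF5, basic helix-loop-helix factors that are degraded upon exposure to light, was compared with wild type (wt). Each genotype was grown in 3 light conditions: continuous darkness (D), 47 h of darkness ending in 1 h of red light at 10 µE (R1h), or continuous white light at 100 µE (WLc). Seeds were cold-stratified before growth, and those of the dark-grown groups received white light and then a far-red pulse after stratification, before the dark period.

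Gibberellins are growth hormones that drive germination and the elongation of the hypocotyl in darkness. Gibberellin 20-oxidases and then 3-oxidases carry out the late steps that produce the bioactive forms, while 2-oxidases inactivate these forms or their precursors. The hormone acts by removing DELLA proteins, repressors of growth that also bind and block the PIFs, and the balance of synthesis and inactivation in a seedling is known to shift with light.

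The labels name 3 H3K9ac libraries for each group, 18 in all, and 6 input libraries, but the table holds 1 pooled signal per peak and group. The values thus have no SD, n or p, no test was run, and every difference described here is one between pooled values without a replicate check. The depth behind the values is unknown. The unit is signal per bp of peak. Over genes, the median signal lay between 0.728 and 0.738 in the 6 groups. A log2 difference is that of signal plus a pseudocount of 0.0717, which understates differences of weak peaks, and a difference of 1.5-fold on this scale was the limit for calling a gene higher or lower. In whole seedlings, fewer cells that carry the mark and less of the mark per cell cannot be told apart. At the loci mutated in pifq, PIF3 had 0.214, 0.223 and 0.170 in pifq D, R1h and WLc, against 1.02, 0.856 and 0.865 in wt D, R1h and WLc. PIF1 had 0.557, 0.514 and 0.535 in pifq, against 0.964, 0.947 and 0.855 in wt, and PIF4 and PIF5 did not pass the limit between the genotypes in any light condition. H3K9ac does not report the alleles themselves.

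Most peaks of the oxidase genes lay just downstream of the transcriptional start site (TSS). Of the 9 peaks, 7 covered part of exon 1 and began between 57 and 316 bp downstream of the TSS. The others were the second peak of GA2OX4, in exon 3, and the peak of GA3OX2, which lay from 1323 to 1580 bp downstream of its TSS in exon 2. GA3OX2 has a tandem neighbour, GA3OX4, and the TSS of GA3OX4 is the nearest to the centre of that peak in the TAIR10.1 annotation, although the table enters the peak for GA3OX2. Several peaks were short, with 258 bp at GA2OX1, 257 bp at GA3OX2, 301 bp at GA2OX8, and 294 and 211 bp at the GA2OX4 peaks in exons 1 and 3, against a median of 905 bp over all genes. A shorter peak was held by 3.71% of genes for GA2OX1 and by 2.28% for GA2OX4 in exon 3. None of the 50-bp stretches within the 9 peaks occurs a second time in the 5 chromosomes, so that reads of that length had 1 exact place. The coding sequences themselves were most alike between GA20OX1 and GA20OX2, with 79.4% identical bases over the aligned positions, and between GA3OX1 and GA3OX2, with 76.5%. GA2OX1 and GA2OX2 shared 65.0%, and GA2OX7 and GA2OX8 shared 60.4%.

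**Figure D1:**
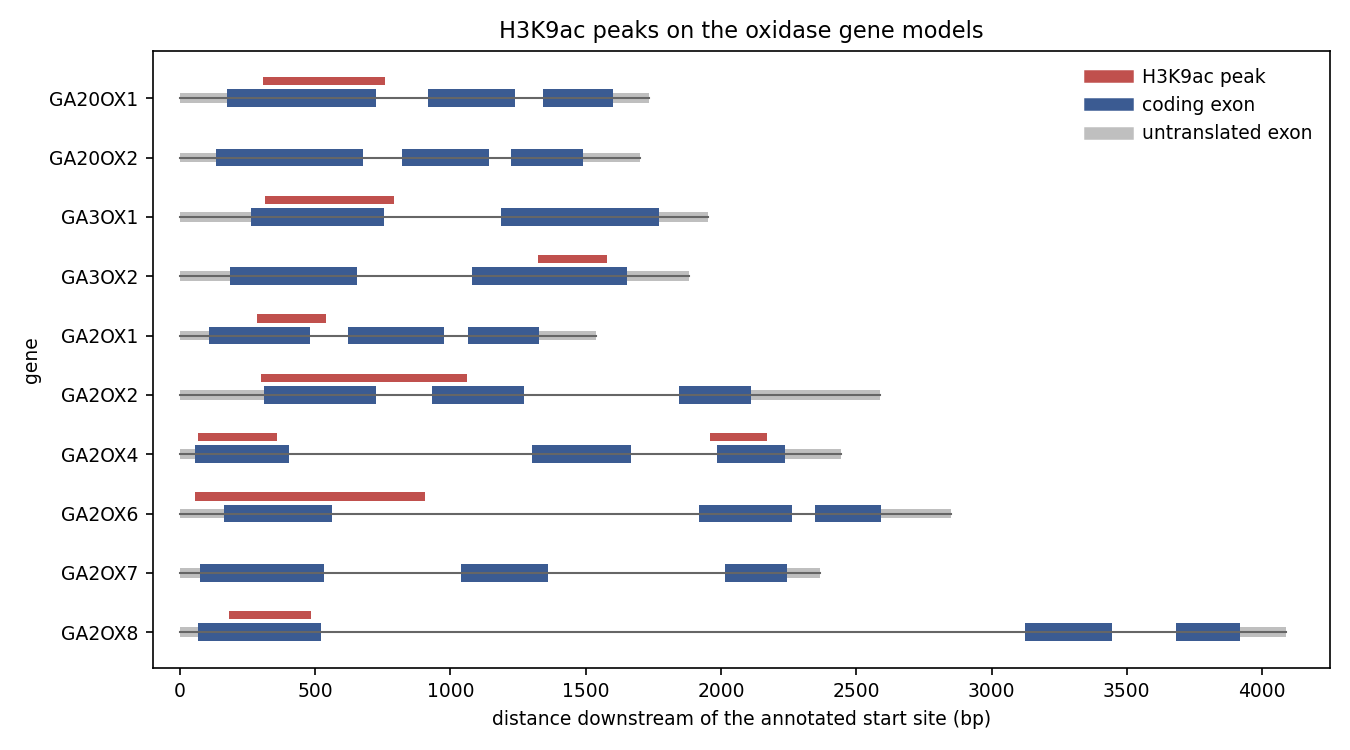
Exons and H3K9ac peaks of the 10 oxidase genes, drawn to scale against the distance from the annotated start site in bp. Red bars are peaks, blue boxes coding exons and grey boxes untranslated exons. GA20OX2 and GA2OX7 carry no peak, GA2OX4 carries 2, and the peak of GA3OX2 lies in its last exon.

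GA20OX2 and GA2OX7 have no entry, and no peak of another gene overlaps them. GA20OX2 (chr5:21055179-21056881, minus strand) encodes a 20-oxidase, and the nearest peak, that of PGM, lies 10532 bp away. GA2OX7 (chr1:18889473-18891838, plus strand) encodes a 2-oxidase that acts on C20 precursors, and the nearest peak, that of AT1G50970, lies 4180 bp away. No enriched region was entered for either gene, so no value of their H3K9ac is at hand, which is not the same as a signal of 0.

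Among the genes of synthesis, GA20OX1 and GA3OX1 had their lowest signal in wt WLc. GA20OX1 encodes the 20-oxidase best known from stem elongation, and its peak (chr4:12991825-12992276) covers 418 bp of exon 1 and 34 bp of intron 1. It had a signal of 0.730, 0.671 and 0.580 in pifq D, R1h and WLc, against 0.649, 0.588 and 0.399 in wt D, R1h and WLc. Signal was thus higher in pifq than in wt in each light condition, and lowest in WLc in both genotypes. The gaps in D and R1h were small, with log2 differences of 0.16 and 0.17, which 21.7% and 17.4% of all genes exceeded. The log2 difference was -0.61 in wt WLc against wt D and -0.30 in pifq WLc against pifq D. In WLc, pifq lay 0.47 above wt, which 1.93% of all genes exceeded, but this did not reach 1.5-fold.

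GA3OX1 encodes a 3-oxidase that makes bioactive gibberellin during germination and vegetative growth. Its peak (chr1:5345551-5346026) covers 439 bp of exon 1 and 37 bp of intron 1. It had 0.711, 0.743 and 0.711 in pifq D, R1h and WLc, against 0.807, 0.774 and 0.450 in wt D, R1h and WLc. The 3 pifq values lay close together, and in wt the WLc value stood below the other two. The log2 difference was -0.75 in wt WLc against wt D and 0.00 in pifq WLc against pifq D, so that the light response was 0.75 higher in pifq than in wt, and 95.7% of genes had a smaller value of this difference. Between pifq WLc and wt WLc the log2 difference was 0.58, just short of 1.5-fold.

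GA3OX2 encodes a second 3-oxidase of the seedling. Its peak (chr1:30200769-30201026) had 0.674, 0.733 and 0.831 in pifq D, R1h and WLc, against 0.737, 0.643 and 0.685 in wt D, R1h and WLc. It was the most even member, with a range of 0.34 on the log2 scale over the 6 groups, and no comparison passed the limit. Where GA20OX1 and GA3OX1 had less signal in WLc than in D in wt, GA3OX2 differed there by -0.09.

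**Figure D2:**
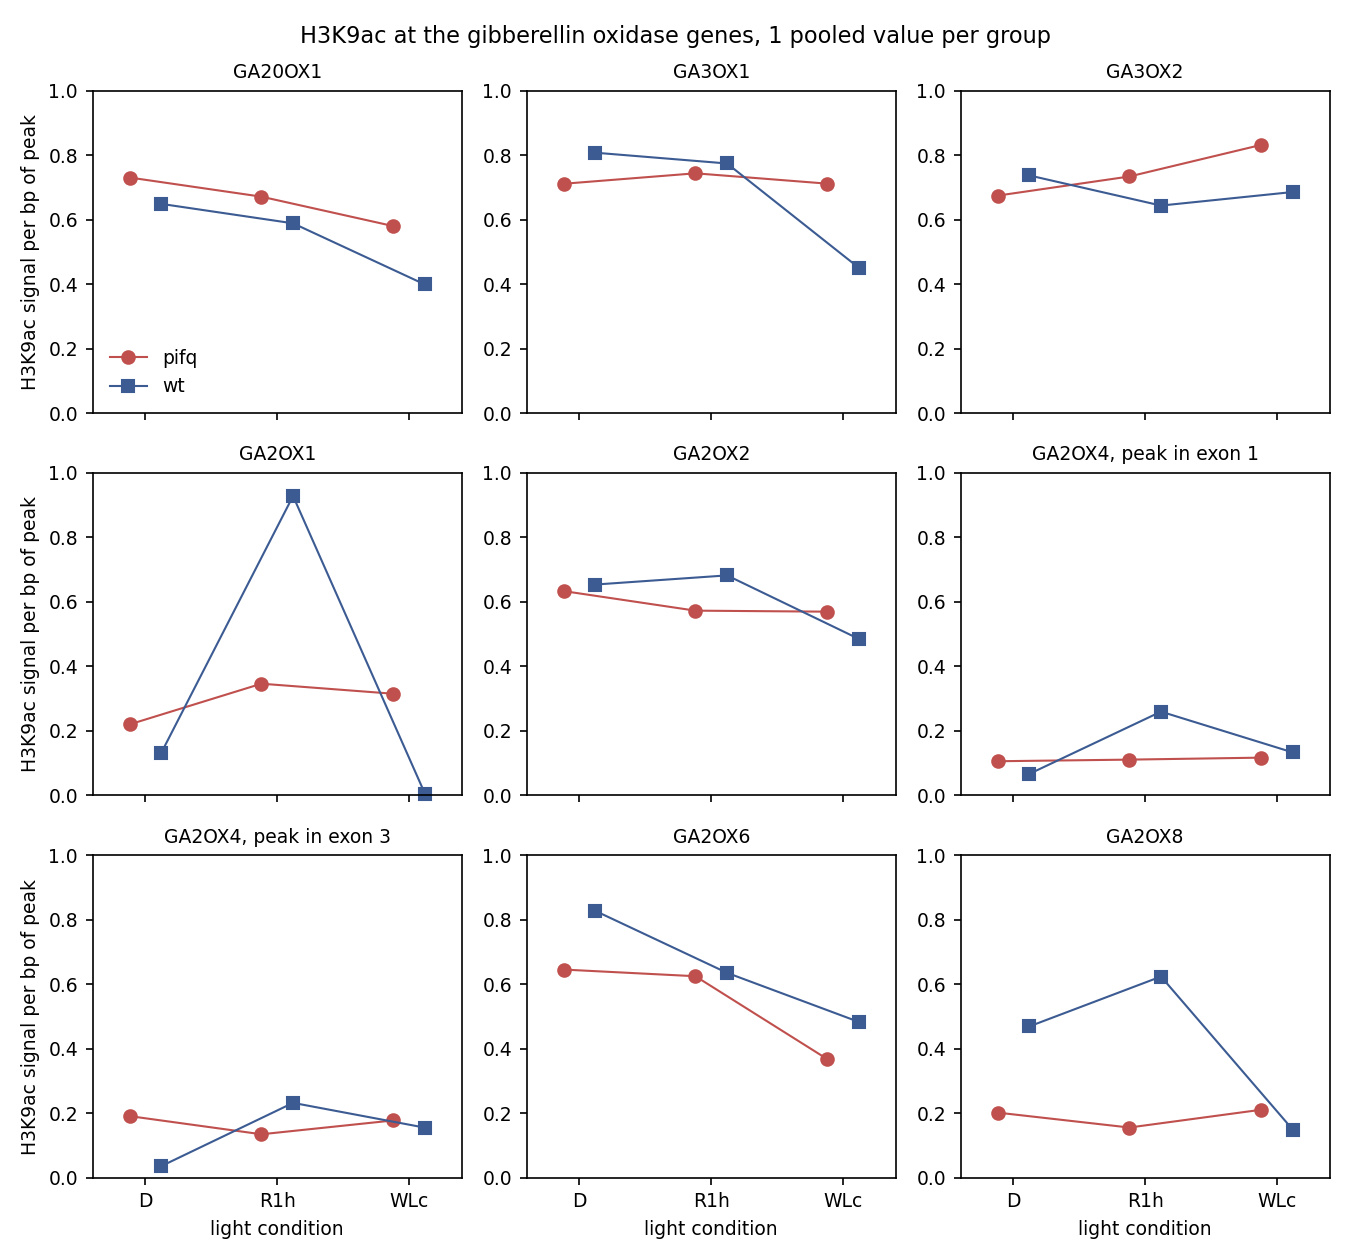
H3K9ac signal per bp of peak at the 9 peaks of the 8 oxidase genes, in D, R1h and WLc. Red circles are pifq and blue squares wt, each 1 pooled value, and lines join the values of 1 genotype. GA2OX1 reaches 0.928 in wt R1h and is near 0 in wt WLc, while its pifq values lie between 0.220 and 0.346.

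The widest differences were found among the genes of inactivation, and above all at GA2OX1. GA2OX1 encodes a 2-oxidase of C19 gibberellins, the class that holds the bioactive forms. Its peak (chr1:29512558-29512816 in TAIR10.1, minus strand) spans 197 coding bp at the end of exon 1 and 62 bp of intron 1. The sequence over which this signal was measured is shown because it carries the largest R1h difference among the members. It is given 5′ to 3′ along the gene, with the coding bases in capitals and the intron in lower case.
GA2OX1 peak: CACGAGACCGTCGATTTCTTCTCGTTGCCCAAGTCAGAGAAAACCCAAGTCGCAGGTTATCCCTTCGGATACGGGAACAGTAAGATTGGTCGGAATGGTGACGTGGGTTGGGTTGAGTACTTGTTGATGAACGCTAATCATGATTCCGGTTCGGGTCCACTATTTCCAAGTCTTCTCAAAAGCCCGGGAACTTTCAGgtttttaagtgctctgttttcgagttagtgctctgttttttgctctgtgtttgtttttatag

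GA2OX1 had 0.220, 0.346 and 0.315 in pifq D, R1h and WLc, against 0.132, 0.928 and 0.00593 in wt D, R1h and WLc. In wt it was thus high only in R1h, where it exceeded 84.0% of genes, and in the other two conditions at most 1.56% of genes lay below it. The pifq values lay between these extremes in all 3 light conditions. In wt WLc the signal multiplied by peak length was 1.72 times the lowest value that column holds. No fold against that value is given beyond the log2 difference, which there depends on the pseudocount.

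The log2 difference at GA2OX1 was 2.30 in wt R1h against wt D, and 21 of the 17672 genes had a larger one. In pifq R1h against pifq D it was 0.52, short of the limit. The response to red light in pifq minus that in wt was -1.78, and 0.0509% of genes had a lower value. In WLc the genotypes differed the other way, with a log2 difference of 2.32 for pifq WLc against wt WLc, which 1 gene of the table exceeded. Both signals behind it were weak, with 4.32% of genes below that of pifq WLc, and the difference was 0.89 with a pseudocount of 0.5 of the median. GA2OX1 was lower in wt WLc than in wt D by a log2 difference of -1.39, and in R1h it was lower in pifq than in wt, by -1.26.

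GA2OX4, another 2-oxidase gene of the C19 type, had weak signal throughout. Its peak in exon 3 (chr1:17700558-17700769), which represents the gene because its mean is the higher one, had 0.191, 0.135 and 0.178 in pifq D, R1h and WLc, against 0.0362, 0.232 and 0.156 in wt D, R1h and WLc. The wt D value stood below the other 5. Its peak in exon 1 (chr1:17698665-17698959) had 0.106, 0.111 and 0.117 in pifq, against 0.0667, 0.260 and 0.133 in wt. Both peaks were highest in wt R1h and lowest in wt D, and in every group at most 2.47% of genes lay below either value. Both peaks passed the limit in wt R1h against wt D, with log2 differences of 1.49 in exon 3 and 1.26 in exon 1. In pifq R1h against pifq D they gave -0.35 and 0.04.

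The peaks of GA2OX4 parted in other comparisons. In pifq D against wt D the log2 difference was 1.29 in exon 3 and 0.36 in exon 1. In wt WLc against wt D it was 1.07 in exon 3 and 0.57 in exon 1, so that both of these counts of GA2OX4 rest on the peak in exon 3. In pifq R1h against wt R1h it was -0.56 in exon 3 and -0.86 in exon 1, and here only the peak in exon 1 passed.

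GA2OX2 and GA2OX6 are the other members that encode C19 2-oxidases. GA2OX2 has a role in holding back seed germination in the dark, and its peak (chr1:10537758-10538520) spans exon 1, intron 1 and part of exon 2. It had 0.634, 0.573 and 0.570 in pifq D, R1h and WLc, against 0.654, 0.682 and 0.485 in wt D, R1h and WLc. No comparison passed the limit, and the difference farthest from 0 was -0.38 in wt WLc against wt D. GA2OX6, known as a target of the embryo factor AGL15, has a peak of 851 bp over exon 1 and intron 1 (chr1:486857-487708). It had 0.646, 0.625 and 0.368 in pifq D, R1h and WLc, against 0.828, 0.635 and 0.483 in wt D, R1h and WLc. GA2OX6 was lowest in WLc in both genotypes, with a log2 difference of -0.71 in pifq WLc against pifq D and -0.70 in wt WLc against wt D. The light responses in the genotypes differed by -0.01. In this GA2OX6 differed from GA3OX1, whose response to WLc was 0.75 higher in pifq than in wt.

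GA2OX8 encodes a 2-oxidase that acts on C20 precursors. Its peak (chr4:11302865-11303166) lies within exon 1. It had 0.202, 0.156 and 0.211 in pifq D, R1h and WLc, against 0.469, 0.624 and 0.149 in wt D, R1h and WLc. The values fell into 2 levels, with wt D and wt R1h above, and wt WLc together with all 3 pifq groups below. In pifq D against wt D the log2 difference was -0.98, and in pifq R1h against wt R1h it was -1.61, which 37 genes lay below. In wt WLc against wt D it was -1.29, in pifq WLc against pifq D it was 0.05, and in pifq WLc against wt WLc it was 0.36.

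The comparisons were then read across the members, against the share of all genes past the same limit. The comparisons wt R1h, wt WLc and pifq D share the wt D values, and each other group also enters more than 1 comparison. In wt R1h against wt D, 2 of 8 members were higher (GA2OX1 and GA2OX4) and 0 lower, where 3.41% of all genes were higher and 0.628% lower. In pifq R1h against pifq D, 0 of 8 were higher and 0 lower, where 1.41% of all genes were higher and 0.368% lower. Both members that were higher with red light in wt encode 2-oxidases of C19 gibberellins. The class did not move as 1, since GA2OX2 and GA2OX6, which encode enzymes of the same type, gave 0.06 and -0.35. Among the members, the genes of synthesis differed in that comparison by at most 0.18 in size, with -0.13 at GA20OX1, -0.06 at GA3OX1 and -0.18 at GA3OX2.

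In wt WLc against wt D, 5 of 8 members were lower (GA20OX1, GA3OX1, GA2OX1, GA2OX6 and GA2OX8) and 1 was higher (GA2OX4), where 6.16% of all genes were lower and 7.22% higher. The median over the 8 members was -0.66, against -0.01 over all genes, and the lower members include genes of synthesis and of inactivation. In pifq WLc against pifq D, 1 member was lower (GA2OX6) and 0 were higher, where 0.985% of all genes were lower and 3.08% higher. The median of the members was -0.04 there, against 0.01 over all genes.

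Between the genotypes in D, 1 member was higher in pifq (GA2OX4) and 1 lower (GA2OX8), where 4.54% of all genes were higher and 4.33% lower. In R1h, 2 were lower in pifq (GA2OX1 and GA2OX8) and 0 higher, where 3.58% of all genes were lower and 2.35% higher. In WLc, 1 was higher in pifq (GA2OX1) and 0 lower, where 1.02% of all genes were higher and 0.187% lower. GA20OX1, GA3OX1 and GA3OX2 did not pass the limit between the genotypes in any light condition.

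Some of these counts depend on the pseudocount. With one of 0.5 of the median, GA2OX1 alone passed the limit in wt R1h against wt D (GA2OX4 gave 0.58), where 1.12% of all genes were higher and 0.147% lower, and GA2OX8 alone in wt WLc against wt D, where 3.63% were higher and 2.92% lower. No member then passed in pifq D against wt D, where 1.38% were higher and 1.56% lower, or in pifq WLc against pifq D, where 1.09% were higher and 0.113% lower.

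**Figure D3:**
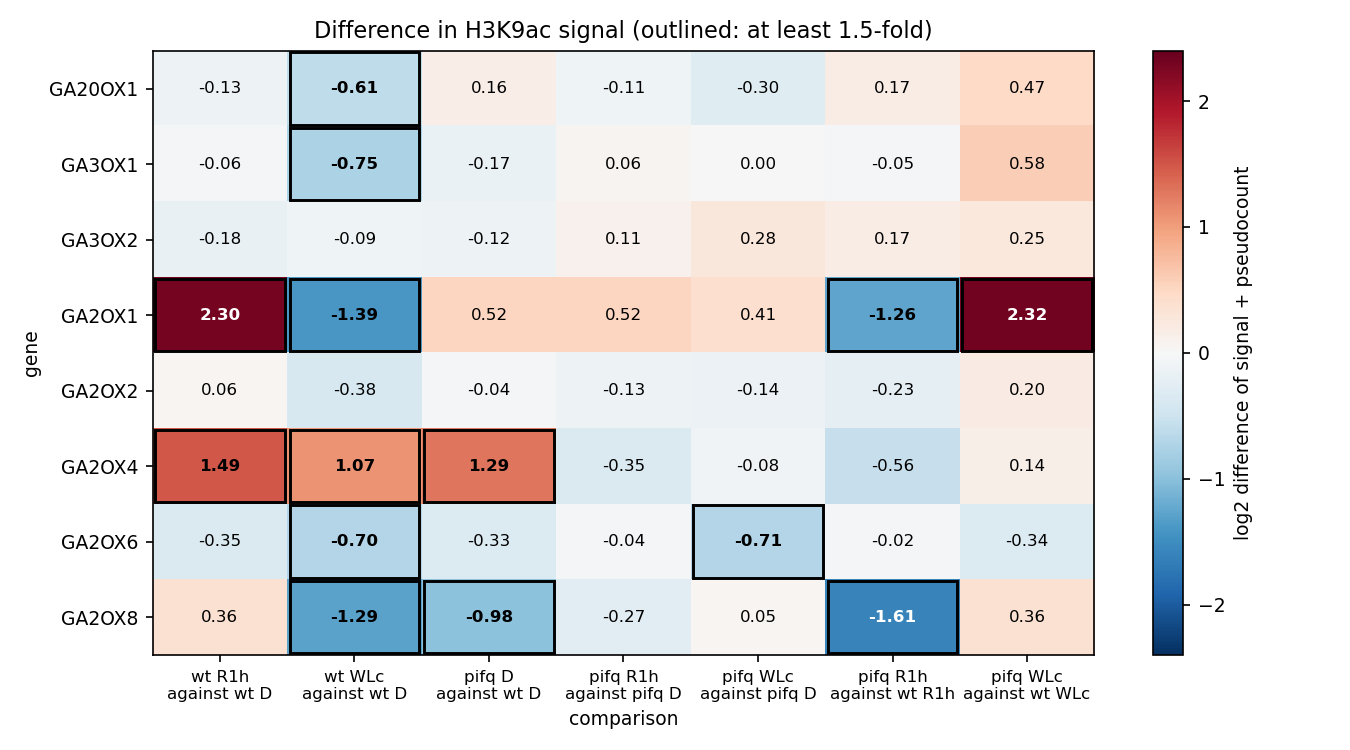
Log2 differences in H3K9ac signal plus pseudocount for the 8 oxidase genes (rows) in 7 comparisons (columns), with red for higher and blue for lower in the group named first. Outlined cells are at least 1.5-fold apart. GA2OX1 holds the values of 2.30 and 2.32, and the column of pifq R1h against pifq D has no outlined cell.

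**Figure D4:**
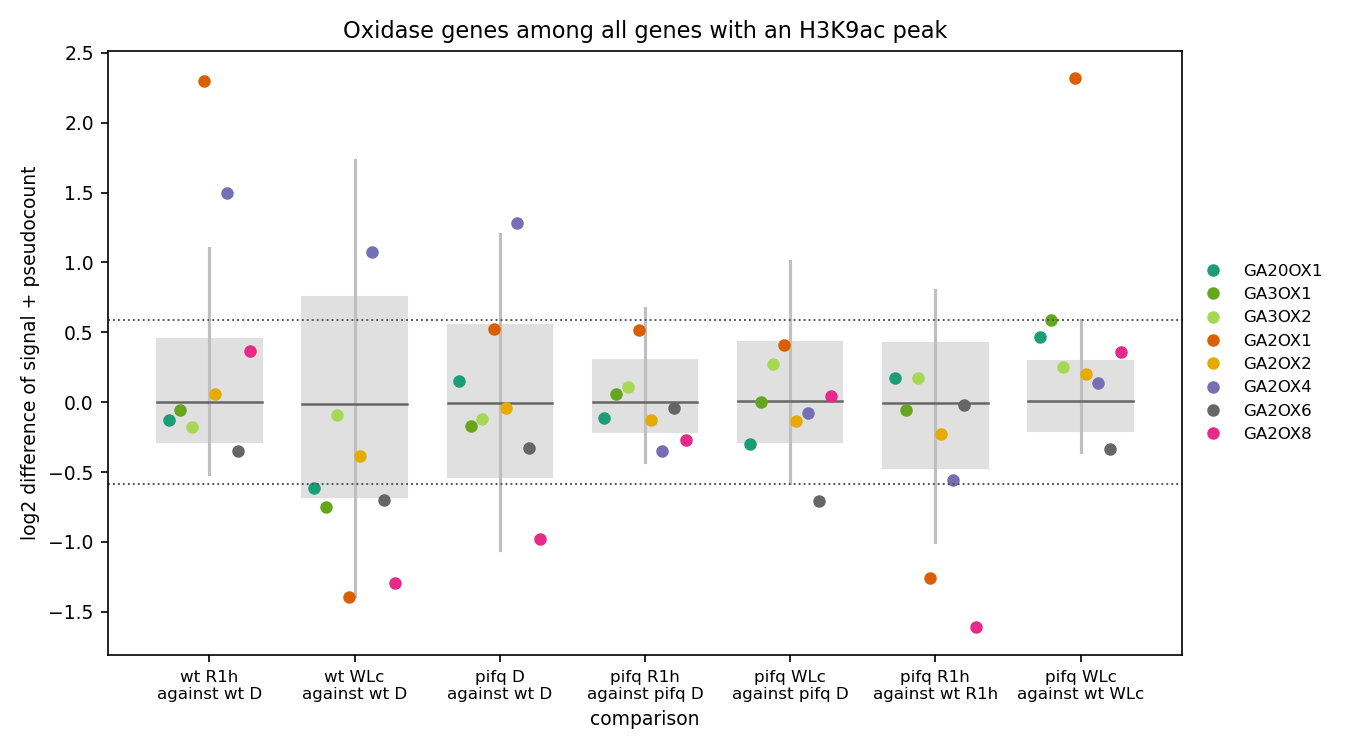
The same log2 differences (coloured points) set against all genes with a peak. Grey boxes run from the 5th to the 95th percentile of all genes, grey lines from the 1st to the 99th, dark bars mark the median, and dotted lines mark 1.5-fold. GA2OX1 stands far above the box in wt R1h against wt D and in pifq WLc against wt WLc.

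Since the PIFs bind the G-box (CACGTG) and the PIF-binding element (PBE-box, CACATG or CATGTG on the opposite strand), the 1000 bp upstream of each TSS were searched for these letters in the TAIR10.1 sequence. Of the 27443 protein-coding genes, 14.8% hold a G-box in that window and 37.7% a PBE-box, and within 250 bp the shares are 6.49% and 11.1%. A G-box was found 90 bp upstream of the TSS of GA2OX4, and another 580 bp upstream of GA2OX7. A PBE-box was found 70 bp upstream of GA3OX1 and 403 bp upstream of GA3OX2, and GA20OX2 and GA2OX7 have 2 each within 250 bp. GA20OX1, GA2OX1, GA2OX2, GA2OX6 and GA2OX8 had neither in the 1000 bp. A match is a description of letters and no evidence of binding, and the lack of one says only that they are not in this window.

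The 250 bp upstream of GA2OX4 and GA2OX1 are shown because both genes had more signal in wt R1h than in wt D and only GA2OX4 holds a G-box, and those of GA3OX1 because its WLc difference was -0.75 in wt and 0.00 in pifq. GA3OX1 was not alone in this. The WLc response in pifq minus that in wt was larger at GA2OX8 (1.34) and GA2OX1 (1.80), which hold neither motif in the 1000 bp. At GA2OX4, which holds a G-box, it was -1.15. A part of the motifs in these responses was not tested. The sequences are written 5′ to 3′ along the gene up to the base before the TSS, at chr1:17698348-17698597 (plus strand), chr1:29513101-29513350 (minus strand) and chr1:5346343-5346592 (minus strand), with G-box and PBE-box in capitals.
GA2OX4 upstream: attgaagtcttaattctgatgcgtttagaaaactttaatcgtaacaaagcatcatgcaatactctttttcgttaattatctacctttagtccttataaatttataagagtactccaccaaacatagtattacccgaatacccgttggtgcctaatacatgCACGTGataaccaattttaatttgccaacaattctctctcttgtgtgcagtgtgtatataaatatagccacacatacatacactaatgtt
GA2OX1 upstream: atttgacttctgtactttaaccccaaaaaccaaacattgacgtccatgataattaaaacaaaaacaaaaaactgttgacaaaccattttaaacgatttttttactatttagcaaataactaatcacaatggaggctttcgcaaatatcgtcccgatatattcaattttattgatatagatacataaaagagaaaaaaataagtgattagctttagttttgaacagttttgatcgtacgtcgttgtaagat
GA3OX1 upstream: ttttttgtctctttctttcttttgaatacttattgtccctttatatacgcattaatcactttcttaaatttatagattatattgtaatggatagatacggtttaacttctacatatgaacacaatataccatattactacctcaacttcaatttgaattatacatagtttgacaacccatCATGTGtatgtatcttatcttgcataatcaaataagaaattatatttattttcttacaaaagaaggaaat

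The elements near the members without a peak are shown with 12 bases on either side, the motif in capitals, 200 and 57 bp upstream of GA20OX2 (chr5:21057064-21057093 and chr5:21056921-21056950, minus strand) and 170 and 61 bp upstream of GA2OX7 (chr1:18889291-18889320 and chr1:18889400-18889429, plus strand).
GA20OX2 distal: atgtataccaagCACATGaacaaatacgca
GA20OX2 proximal: agtatgaaatccCATGTGgcaaaaaaaaga
GA2OX7 distal: ctcttaaaaccaCACATGttattattgttg
GA2OX7 proximal: attggacagcgaCACATGaaattttatatc

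Other genes of the pathway were taken from lists. Of 15 other genes of gibberellin metabolism, 7 have a peak, and of these GA2, GA3, KAO2 and GA3OX4 did not pass in any comparison. The peak of GA3OX4 is also entered for AT1G80320. The other 3, KAO1, GA20OX5 and CYP714A1, all passed in wt WLc against wt D, where 7.22% of all genes were higher and 6.16% lower. KAO1, which encodes an oxidase of the earlier steps, was higher in wt WLc, with 0.836 against 0.503 in wt D and a log2 difference of 0.66. GA20OX5, a further 20-oxidase gene, had 0.107, 0.0877 and 0.211 in pifq D, R1h and WLc, against 0.243, 0.387 and 0.111 in wt D, R1h and WLc. It was lower in pifq in D (-0.82) and in R1h (-1.52) and higher in WLc (0.63), and the directions in R1h and WLc were also those of GA2OX1. GA20OX5 was lower in wt WLc than in wt D (-0.78) and higher in pifq WLc than in pifq D (0.66). CYP714A1, a cytochrome P450 that inactivates gibberellins, had 0.275, 0.239 and 0.136 in pifq D, R1h and WLc, against 0.565, 0.530 and 0.132 in wt D, R1h and WLc. Like GA2OX8 it was lower in pifq D than in wt D (-0.88), in pifq R1h than in wt R1h (-0.95) and in wt WLc than in wt D (-1.65). It was also lower in pifq WLc than in pifq D (-0.74), where GA2OX8 differed by 0.05.

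All 10 genes of perception and signalling that were listed, which encode the GID1 receptors, the DELLA proteins and their F-box partners, have a peak. In 6 of the 7 comparisons none passed the limit, and in pifq WLc against pifq D only SNE did, the gene of an F-box protein, with 0.756 against 0.424 in pifq D and a log2 difference of 0.74. Over all genes 3.08% were higher in that comparison, and the shares in the 7 comparisons lay between 0.187% and 7.22% in either direction, so that few among 10 genes would pass at the rate of all genes. In wt WLc against wt D their median was -0.17 and their range -0.51 to 0.16.

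Genes with a pattern like that of each member past the limit were sought by the Euclidean distance between the 6 log2 values, each centred on its mean. The genes closest to GA2OX1 were VSP2 (distance 1.25), AT4G04990 (1.60) and PHT1;9 (1.70), and their distances were larger than those of any other member's closest genes. The distance grows with the range of a gene, which was 3.69 on the log2 scale at GA2OX1 and 1.66 at GA2OX8. A larger distance is thus no sign of a rarer pattern, and the correlation with VSP2 over the 6 values was 0.918. VSP2 had 0.328 in pifq R1h and 0.523 in wt R1h, and its highest value too was that of wt R1h. Closest to GA2OX8 lay AT1G44542 (0.166), AT1G69150 (0.258) and AT3G48400 (0.292). AT1G69150 had 0.257, 0.207 and 0.235 in pifq D, R1h and WLc, against 0.498, 0.630 and 0.190 in wt D, R1h and WLc, so the 2 levels of GA2OX8 are found there too. The closest to GA2OX4 were APT3 (0.337), TRM24 (0.475) and AT1G35181 (0.516), and to GA2OX6 AT5G40630 (0.174), OASA2 (0.187) and JAZ7 (0.191). To GA20OX1 they were AT4G08450 (0.182), AT3G05470 (0.207) and AT5G22560 (0.221), and to GA3OX1 AT5G22560 (0.176), ICL (0.177) and UNE17 (0.178). These are likenesses over 6 pooled values that share their libraries.

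Neighbouring genes were compared with the members past the limit, by the closest TSS on either side that has a peak of its own. MYB112, a transcription factor gene 7862 bp from GA2OX4, had 0.00705, 0.0218 and 0.0780 in pifq D, R1h and WLc, against 0.0484, 0.304 and 0.0274 in wt D, R1h and WLc. In wt R1h against wt D it was higher by a log2 difference of 1.65, where GA2OX4 gave 1.49. AT1G78450, 4928 bp from GA2OX1, had 0.639 in pifq WLc and 0.382 in wt WLc, where GA2OX1 had 0.315 and 0.00593. In wt R1h against wt D it was higher by 0.73, where GA2OX1 gave 2.30, and in pifq R1h against pifq D it gave 0.51, where GA2OX1 gave 0.52. In wt WLc against wt D it was higher by 1.43 while GA2OX1 was lower, and in pifq WLc against pifq D it was higher by 1.61, where GA2OX1 gave 0.41. The gene on the other side of GA2OX1, AT1G78420, and both neighbours of GA2OX8, AT4G21192 and RP1, differed by at most 0.22 in size in all 7 comparisons. AT4G25410, next to GA20OX1, was lower in wt WLc than in wt D (-0.66), as GA20OX1 was, and so was AT1G02405, next to GA2OX6 (-0.83). The neighbours of GA3OX1, AT1G15530 and CYCA2;3, gave -0.46 and 0.36 in that comparison, short of the limit, and AT1G02380, on the other side of GA2OX6, gave 0.44. ZFWD1, the other neighbour of GA20OX1, and AT1G47970, that of GA2OX4, differed by at most 0.26 in size.

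Some genes listed as tissue markers differed between the same groups. Whether each is confined to 1 tissue in these seedlings was not tested. The 4 of 9 root markers with a peak summed to 2.20, 2.32 and 2.25 in pifq D, R1h and WLc, against 3.11, 3.12 and 1.89 in wt D, R1h and WLc, so that the sums of wt D and wt R1h stood above the other 4 groups, as the levels did at GA2OX8. SCR, the fourth, did not follow this, with 1.04, 1.12 and 1.05 in pifq, against 1.00, 1.06 and 0.981 in wt. SHR, PIN2 and TIP2;3 were lower in wt WLc than in wt D, where 6.16% of all genes were. SHR and TIP2;3 were lower in pifq D than in wt D (4.33% of all genes). PIN2 and TIP2;3 were lower in pifq R1h than in wt R1h (3.58%), and TIP2;3 was higher in pifq WLc than in wt WLc (1.02%). PLT1, PLT2, WOX5, RHD6 and COBL9 have no peak. Of 5 genes listed for the stomatal lineage, SPCH, TMM and EPFL9 have a peak, and MUTE and FAMA have none. The 3 summed to 1.91, 2.03 and 2.49 in pifq, against 1.07, 1.73 and 2.38 in wt. EPFL9 alone had 0.621, 0.660 and 0.613 in pifq, against 0.309, 0.344 and 0.772 in wt. All 3 were higher in wt WLc and in pifq D than in wt D, where 7.22% and 4.54% of all genes were. SPCH and TMM were higher in wt R1h than in wt D (3.41% of all genes). EPFL9 was higher in pifq R1h than in wt R1h (2.35%). Of 7 seed markers OLEO3 alone has a peak, with 0.227, 0.207 and 0.147 in pifq, against 0.974, 0.568 and 0.00718 in wt. It was lower in wt R1h, wt WLc and pifq D than in wt D, where 0.628%, 6.16% and 4.33% of all genes were. It was lower in pifq R1h than in wt R1h (3.58%) and higher in pifq WLc than in wt WLc (1.02%). All 3 epidermis markers and 1 of 3 vascular markers, SUC2, have a peak, and none of these passed the limit in any comparison. The part of tissue makeup in the differences of GA2OX8 and of the members lower in wt WLc was not tested.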

How the data were processed

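H3K9ac ChIP-seq of wt and pifq seedlings was deposited as 1 table. The authors used Bowtie2 for alignment of 50-bp single reads, BayesPeak to find enriched regions, DiffBind to compare these, and the nearest TSS to name a peak's gene. Versions and the way replicates were combined are not given in the sources used here. The deposited signal is 1 pooled value per peak and group. Multiplied by peak length, column totals lie within 2.08% of each other, and whether they were scaled to one another is not stated. Depth per library is unknown. The methods name TAIR9 and the notes TAIR10. Of the genes, 99.5% were found in the TAIR10.1 annotation from RefSeq, and no peak ends past a chromosome. Whether starts count from 0 or 1 is not stated, and positions are printed as deposited.

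Groups follow the labels. For each of 7 comparisons the log2 difference of signal plus 0.0717 (0.1 of the median of all values) was computed over 17672 genes with Python 3.11.15, numpy 2.4.6 and pandas 2.3.3, with 1 peak per gene, the one with the highest mean. The arithmetic was tested on simulated data. All 10 members were named, other genes of the pathway where past 1.5-fold, the 3 most alike genes and the neighbours of members past it. Members and lists were chosen with earlier results of these data known. A listed gene entered where its symbol and locus are paired in the reference, which 3 reference genes were not. The 8 others did not pass 1.5-fold in any comparison. Alternatives were 3 other pseudocounts (including none), scaling by medians, TMM factors, quantiles and reference genes, leaving out the lowest 10% of peaks, the peak nearest the TSS, and a 2-fold limit.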

Additional observations from a re-analysis of the deposited data

How the results depend on the processing

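No paired analysis was possible because the table holds 1 pooled value per group, and for the same reason no library could be left out. Under 9 alternatives (all but the 2-fold limit) no single-gene difference past 1.5-fold reversed. Another pseudocount cannot change the sign of a difference. Leaving out the lowest peaks kept the values of the remaining members as they were, and the peak nearest the TSS changed only GA2OX4. The lack of a reversal was thus fixed in advance for most of these values. Of 483 such values for single genes and comparisons, 458 stayed on their side of the limit, 13 no longer passed it and 12 newly did. With a pseudocount of 0.5 of the median, the number of members past the limit was 1 in wt R1h against wt D (GA2OX1), 1 in wt WLc against wt D (GA2OX8), and 0 in pifq D against wt D and in pifq WLc against pifq D, with 1.09% to 3.63% of all genes higher and 0.113% to 2.92% lower. Leaving out the lowest 10% of peaks keeps 5 members, without GA2OX1, GA2OX4 and GA2OX8, and gave 3 in wt WLc against wt D and 0 in wt R1h against wt D, in pifq D against wt D, in pifq R1h against wt R1h and in pifq WLc against wt WLc. The shares of all genes then ran from 0.393% to 5.48% higher and from 0.0368% to 3.84% lower. At 2-fold the numbers were 3 in wt WLc against wt D, 1 in pifq D against wt D and 0 in pifq WLc against pifq D, with 3.16%, 1.52% and 1.03% of all genes higher and 2.34%, 1.21% and 0.164% lower in these comparisons. With the peak nearest the TSS, pifq D against wt D gave 1, with 4.65% of all genes higher and 4.40% lower. With a pseudocount of 0.01 of the median, and with none, pifq R1h against pifq D gave 1 (GA2OX1), with 1.95% and 2.03% of all genes higher, and pifq WLc against wt WLc gave 2, with 1.66% and 1.73% higher. pifq WLc against wt WLc also gave 2 under equal medians, quantiles and reference genes, through GA3OX1, with between 0.956% and 1.04% of all genes higher. Under reference genes GA20OX1 in wt WLc against wt D gave -0.52 and in the same comparison under quantiles GA2OX4 gave 0.35, both short of the limit. No scaling moved the median of all genes by over 0.1, and the largest move was 0.0949, in wt WLc against wt D under reference genes. The weak signals of GA2OX1, GA2OX4 and GA2OX8 and the unknown depth limit how firmly their differences can be read.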
